A study of Mus musculus with 12 samples.

Results

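Nuclear genes for mitochondrial respiratory-chain, protein-import and ribosome proteins were followed in mouse liver after deletion of Apc, of Myc or of both. The members are the probe sets that carry a single gene symbol on any of the 3 looser lists of changed probe sets the authors deposited, where that symbol starts with Nduf, Cox and a digit, Uqcr, Sdh and a letter a to d, Atp5, Mrpl, Mrps, Timm or Tomm. They are 21 probe sets of 17 genes, of the 2176 genes those lists name and the 32115 probe sets tested. The respiratory members were 11 genes on 15 probe sets: 5 genes of complex I on 9 probe sets, 2 of complex III, 3 with a Cox symbol and 1 of the ATP synthase. The mitochondrial ribosome had 5 genes on 5 probe sets and protein import had 1, and no listed symbol began with Sdh or Timm. Ndufs8, Ndufv1 and Cox15 lie on chromosome 19, Cox6b2 and Ndufab1 on 7, Mrps15 and Uqcrh on 4, Ndufb4 and Tomm70a on 16, and the other 8 genes each on a chromosome of their own (RefSeq, GRCm38.p6). The lists came from the same arrays, with ApcMyc set against WT, ApcMyc against Apc and Apc against WT, so the differences among those 3 groups chose the members and are described below without a test.

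The ApcMyc livers came from mice homozygous for floxed alleles of both Apc and Myc, the Apc livers from mice homozygous for floxed Apc, the Myc livers from mice homozygous for floxed Myc, and the WT livers from mice without a floxed gene. There were 3 arrays of total liver RNA in each of the 4 groups. All mice, WT included, carried AhCre, a Cre recombinase driven by a promoter that beta-naphthoflavone switches on. All received that inducer at 80 mg/kg, 3 times in 1 day, and livers were taken on day 4. Neither the share of recombined liver cells nor the age or sex of the mice is stated in the labels. Separate animals per array are not stated either, so a p-value here weighs a difference against the spread of 3 samples per group that could be technical. The design asks what loss of Apc, of Myc and of both changes in the liver.

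Complexes I to IV carry electrons from nutrients to oxygen, all but complex II pump protons across the inner mitochondrial membrane on the way, and the ATP synthase uses that gradient to make ATP. Most of their subunits are encoded in the nucleus and imported through the TOM and TIM translocases, and the rest are made inside the organelle by the mitochondrial ribosome. Hepatocytes hold many mitochondria, Apc restrains the Wnt effector beta-catenin, and Myc is a transcription factor known to raise genes of mitochondrial biogenesis and of ribosomes.

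Values are given on a log2(signal + 16) scale after quantile normalization, so a difference of 1 is close to a 2-fold change for bright probe sets and understates the change of dim ones, and a signal of 0 lies at 4. Myc itself read 5.37, 5.49 and 5.51 in ApcMyc livers, 8.73, 9.09 and 8.58 in Apc livers, 4.89, 5.47 and 5.30 in Myc livers and 6.56, 5.30 and 6.35 in WT livers. Its Apc minus WT difference was 2.73, given without a test because this probe set is named only through the deposited lists. Its Myc and WT arrays overlapped (difference -0.85, limma adjusted p = 0.0833). It is not known here whether its probes lie in the deleted part of the gene, and Apc itself was not analysed here. Glul, glutamine synthetase and a pericentral Wnt target, averaged 13.02 ± 0.118 in ApcMyc, 13.47 ± 0.036 in Apc, 11.38 ± 0.102 in Myc and 11.06 ± 0.117 in WT livers (SD, n = 3 each). The median signal of an array was 86.5 to 106.9 in ApcMyc, 59.5 to 78.9 in Myc and 35.4 to 53.7 in Apc and WT. The dap spike control read 1.1 to 5.1 in the ApcMyc and Myc arrays and 160.0 to 327.1 in the Apc and WT arrays. The sample titles follow one style for ApcMyc and Myc and another for Apc and WT, so Myc deletion and whatever that style marks cannot be told apart. Apc against WT and ApcMyc against Myc each lie within 1 style.

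Most members were lowest in ApcMyc livers. Against the mean of the WT arrays, the median over the 21 probe sets was -1.10 to -1.02 in the ApcMyc arrays, -0.22 to -0.08 in the Apc arrays and -0.56 to -0.44 in the Myc arrays, with -0.03 to 0.01 in the WT arrays themselves. The 4 groups did not overlap in this median. In ApcMyc against WT 18 of the 21 probe sets were lower and 3 higher, with a median difference of -1.07, where the median over all tested probe sets was -0.01. All ApcMyc arrays were below all WT arrays in 16 probe sets and above them in 3. Over all tested probe sets 20.5% lay below in this way and 19.4% above, and nothing is read from the members' count because this comparison chose them. Of the 20 members on the authors' deposited table for ApcMyc against WT, 17 were listed as lower in ApcMyc, while 43.3% of that list's 2871 probe sets were. The smallest SAM statistic of a lower probe set on that list was 1.696 in size, and the nearest member was Ndufa13 at 1.736. Among the higher ones the list reached down to 1.674, and the nearest member was Ndufab1 at 1.894. These are whole-liver values, in which fewer cells of a type and less RNA per cell cannot be told apart.

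**Figure D1:**
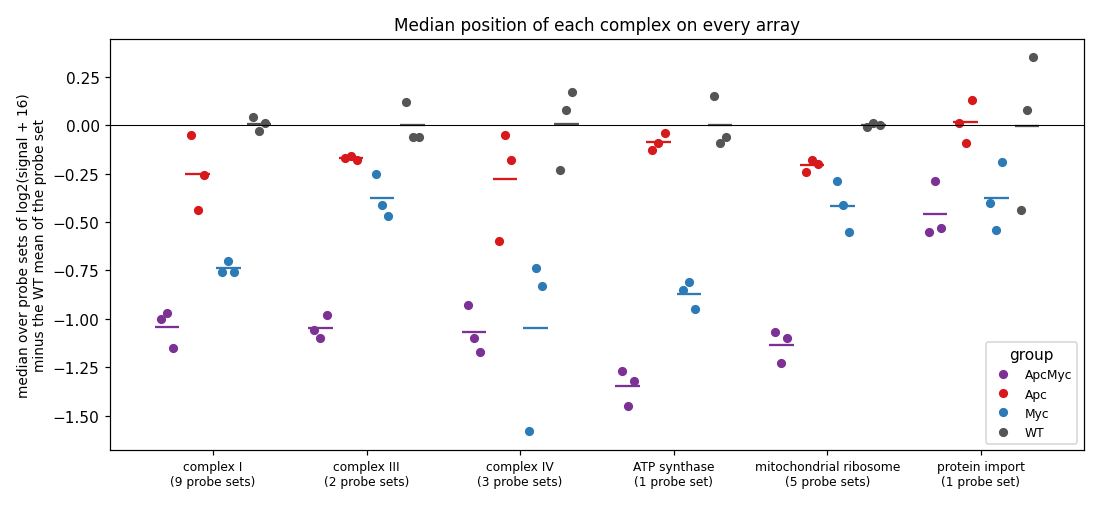
Median over the probe sets of each complex of log2(signal + 16) minus the WT mean of the probe set, 1 point per array and a line at the mean of the 3 arrays; groups run ApcMyc, Apc, Myc, WT from left to right. The ApcMyc points of complex I lie between -1.15 and -0.97 and those of the mitochondrial ribosome between -1.23 and -1.07, below the Apc, Myc and WT points of the same complex. Complex IV stands for the 3 probe sets with a Cox symbol, and 1 of its Myc arrays lies at -1.58, which is the value of the dim Cox6b2.

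The commonest order of the group means, from low to high, was ApcMyc, Myc, Apc, WT, found in 10 probe sets of Atp5e, Cox6c, Mrps15, Ndufs8, Ndufv1, Uqcr and Uqcrh. In 4 probe sets, of Mrpl38, Mrpl47, Ndufa13 and Ndufs8, the order was ApcMyc, Apc, Myc, WT. Mrpl52 and Tomm70a ran ApcMyc, Myc, WT, Apc. Apc also stood below Myc in Mrps25 and Ndufab1, and above WT in Cox6b2, Ndufb4, Mrps25 and Ndufab1. Expressed as a share of the ApcMyc minus WT difference, the Myc minus WT difference had a median of 62.3% and ran from 19.8% to 121.8%. The Apc minus WT difference had a median share of 23.5% and ran from -36.8% to 86.7%. Both shares are over the 20 probe sets other than that of Cox6b2, which was not listed for ApcMyc against WT. The ApcMyc and WT arrays of Cox6b2 overlapped, as did those of Tomm70a, which was kept. The Apc and Myc means were therefore in no fixed order among the members.

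Promoter sequences are shown for 5 members on the respiratory and ribosome sides, because a match to the ETS motif recurred among the member promoters. RefSeq promoters of mouse assembly GRCm38.p6, 250 bases before to 50 after the start of the gene, were matched for 15 of the 17 genes and not for Mrpl38 and Cox6c. The ETS motif CCGGAAG, a core bound by ETS-family factors such as GABPA, was searched on both strands and found in 7 of the 15, those of Atp5e, Cox15, Mrpl52, Ndufs8, Tomm70a, Uqcr and Uqcrh. It was in 8.86% of all 32851 promoters of this length in the table. Ndufv1, Ndufa13, Mrpl47 and Mrps15, which were also lower in ApcMyc than in WT, had no match. Neither did the higher members Ndufab1, Ndufb4 and Mrps25. The E-box CACGTG, a Myc and Max binding sequence, was in 1 member promoter, that of Ndufv1, and in 7.15% of all. The NRF1 letters GCGCATGCG were in 1, that of Uqcr, and in 1.75% of all. The letters of YY1, AAGATGGCG, and of TCF, CTTTGAT, searched on both strands, were in none of the 15, and in 1.4% and 3.73% of all promoters. No match shared bases with a match to another motif. Member promoters had a median GC content of 57.7%, against 52.7% for all promoters, and CCGGAAG is itself rich in G and C. A match is a description of letters and not of binding. The promoters below are at chr19:3912725-3913024 (minus strand, Ndufs8), chr2:174464052-174464351 (minus strand, Atp5e), chr10:80406772-80407071 (minus strand, Uqcr, now Uqcr11), chr14:54426659-54426958 (plus strand, Mrpl52) and chr19:4012706-4013005 (minus strand, Ndufv1). They are written 5′ to 3′. Capitals mark the ETS motif on either strand, the NRF1 letters nearest the start in Uqcr, and the E-box in Ndufv1.
Ndufs8: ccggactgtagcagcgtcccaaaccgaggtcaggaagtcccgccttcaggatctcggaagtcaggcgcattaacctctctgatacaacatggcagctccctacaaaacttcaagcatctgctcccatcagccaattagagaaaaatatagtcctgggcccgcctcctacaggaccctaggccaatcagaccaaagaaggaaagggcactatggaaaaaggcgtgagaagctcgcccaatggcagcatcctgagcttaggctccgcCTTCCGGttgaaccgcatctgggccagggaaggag
Atp5e: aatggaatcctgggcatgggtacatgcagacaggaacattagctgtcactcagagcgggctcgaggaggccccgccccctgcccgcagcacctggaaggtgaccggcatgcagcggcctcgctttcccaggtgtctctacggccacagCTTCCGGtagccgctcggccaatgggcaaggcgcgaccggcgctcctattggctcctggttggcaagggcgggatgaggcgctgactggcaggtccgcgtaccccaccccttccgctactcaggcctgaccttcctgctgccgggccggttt
Uqcr: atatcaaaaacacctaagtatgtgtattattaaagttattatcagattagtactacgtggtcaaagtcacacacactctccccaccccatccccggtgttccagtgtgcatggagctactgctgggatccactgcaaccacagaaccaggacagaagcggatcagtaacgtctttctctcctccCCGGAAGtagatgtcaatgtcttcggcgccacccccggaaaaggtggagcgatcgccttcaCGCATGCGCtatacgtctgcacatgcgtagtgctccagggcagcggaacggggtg
Mrpl52: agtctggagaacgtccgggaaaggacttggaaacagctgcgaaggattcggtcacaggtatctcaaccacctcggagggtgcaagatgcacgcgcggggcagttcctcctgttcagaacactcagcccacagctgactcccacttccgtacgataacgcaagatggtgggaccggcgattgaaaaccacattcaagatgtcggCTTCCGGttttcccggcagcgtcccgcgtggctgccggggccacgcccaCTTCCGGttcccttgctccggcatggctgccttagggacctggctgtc
Ndufv1: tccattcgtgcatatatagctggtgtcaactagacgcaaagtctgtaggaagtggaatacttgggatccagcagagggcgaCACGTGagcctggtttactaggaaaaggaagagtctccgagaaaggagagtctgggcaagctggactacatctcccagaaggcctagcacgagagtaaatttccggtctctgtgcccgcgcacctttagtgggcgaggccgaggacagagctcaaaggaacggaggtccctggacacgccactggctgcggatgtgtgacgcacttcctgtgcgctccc
The first match began 15 bases after the start of Ndufs8, 102 before that of Atp5e, 66 before that of Uqcr and 47 before that of Mrpl52, whose promoter held 2 matches. The E-box of Ndufv1 began 169 bases before its start.

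Complex I, which takes electrons from NADH, was represented by 2 core subunits that carry electrons, Ndufs8 and Ndufv1, and by 3 accessory ones. Ndufs8, an iron-sulfur subunit, was read by 4 probe sets, 2 of them of a kind (_x_at) whose probes can also bind other sequences. Its probe set 1455283_x_at read 10.82, 10.77 and 10.98 in ApcMyc, 12.22, 11.87 and 12.04 in Apc, 11.45, 11.38 and 11.43 in Myc and 12.30, 12.28 and 12.34 in WT livers. The 4 groups did not overlap, with ApcMyc lowest and Apc nearest to WT. ApcMyc minus WT was -1.45 ± 0.144 (SE), which is 2.73-fold lower, and the other 3 probe sets gave -1.47, -1.31 and -1.02. Probe set 1423908_at differed from these in Myc livers: it read 9.24, 9.34 and 9.30 in ApcMyc, 10.28, 9.64 and 9.72 in Apc, 10.21, 10.11 and 10.01 in Myc and 10.23, 10.42 and 10.28 in WT. Its Myc arrays lay just under the WT arrays, while the Myc arrays of the other 3 lay 0.84 to 1.01 under WT on average.

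Ndufv1, the subunit that binds NADH and flavin, was read by 2 probe sets that gave nearly the same values. Probe set 1415966_a_at read 10.43, 10.41 and 10.24 in ApcMyc, 11.29, 11.21 and 11.26 in Apc, 10.67, 10.69 and 10.63 in Myc and 11.51, 11.34 and 11.44 in WT livers. The ApcMyc and Myc arrays lay well under the Apc and WT arrays, and no pair of groups overlapped. ApcMyc minus WT was -1.07 ± 0.134 here and -1.02 ± 0.142 in 1456015_x_at, a 2.10-fold and a 2.03-fold lower level. Ndufa13, an accessory subunit also known as GRIM-19, read 12.13, 12.17 and 12.13 in ApcMyc, 12.44, 12.28 and 12.46 in Apc, 12.52, 12.61 and 12.63 in Myc and 12.84, 12.77 and 12.80 in WT. Its groups did not overlap, and its ApcMyc minus WT difference of -0.66 ± 0.132 was small among the lower members of complex I.

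Both complex I members on the higher side are accessory. Ndufab1, the mitochondrial acyl carrier protein, which also serves fatty acid synthesis in the organelle, read 8.64, 8.66 and 8.68 in ApcMyc, 7.64, 7.81 and 7.53 in Apc, 7.39, 8.48 and 7.71 in Myc and 7.56, 7.42 and 7.69 in WT livers. The ApcMyc arrays stood above all others, and 1 Myc array was close to them. ApcMyc minus WT was 1.10 ± 0.230 and ApcMyc minus Apc was 1.0 ± 0.230. Ndufb4, a subunit of the membrane arm, was dim in every group: it read 4.90, 5.29 and 5.27 in ApcMyc, 5.57, 4.78 and 4.39 in Apc, 4.89, 4.40 and 5.12 in Myc and 4.52, 4.47 and 4.35 in WT. Its ApcMyc arrays were above the WT arrays, and the Apc arrays spanned nearly the whole range.

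The complex III members are small subunits, and both were lower in ApcMyc. Uqcrh, the hinge protein next to cytochrome c1, read 10.91, 10.79 and 10.78 in ApcMyc, 11.75, 11.88 and 11.84 in Apc, 11.78, 11.59 and 11.45 in Myc and 12.03, 11.76 and 11.73 in WT livers. The ApcMyc arrays stood apart while Apc, Myc and WT overlapped, and ApcMyc minus WT was -1.01 ± 0.150. Uqcr read 10.79, 10.82 and 11.07 in ApcMyc, 11.71, 11.62 and 11.62 in Apc, 11.54, 11.41 and 11.42 in Myc and 12.02, 11.94 and 11.97 in WT. Each group of Uqcr was separate from the next, with an ApcMyc minus WT difference of -1.08 ± 0.139.

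The 3 members with a Cox symbol behaved differently from one another. The only member probe set of Cox15, 1437982_x_at, is of the kind whose probes can also bind other sequences. Cox15 is not a subunit but the enzyme that makes heme A for cytochrome c oxidase. It read 7.52, 7.83 and 7.67 in ApcMyc, 8.27, 8.62 and 8.90 in Apc, 7.32, 7.23 and 7.42 in Myc and 9.02, 9.33 and 9.41 in WT livers, so its Myc arrays were the lowest. Cox6c, a subunit of cytochrome c oxidase, read 10.27, 10.10 and 10.03 in ApcMyc, 10.60, 11.14 and 11.02 in Apc, 10.37, 10.46 and 10.74 in Myc and 11.11, 11.12 and 11.37 in WT. Its ApcMyc arrays were under all others, and its Apc arrays overlapped both Myc and WT. Cox6b2, an isoform of subunit VIb best known from testis, read 5.33, 4.78 and 5.89 in ApcMyc, 7.24, 8.29 and 9.41 in Apc, 4.14, 5.43 and 4.89 in Myc and 4.91, 5.80 and 6.44 in WT. The Apc arrays of Cox6b2 stood above those of the other groups and differed widely from one another, while its ApcMyc, Myc and WT arrays were dim. It was the member with the largest Apc minus WT difference, 2.59 ± 0.530, and it was listed for ApcMyc against Apc, where the difference was -2.98 ± 0.530.

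Atp5e, the epsilon subunit in the stalk of the ATP synthase, read 10.18, 10 and 10.13 in ApcMyc, 11.31, 11.36 and 11.41 in Apc, 10.60, 10.64 and 10.50 in Myc and 11.60, 11.35 and 11.39 in WT livers. The Apc and WT arrays overlapped, the Myc arrays lay under both and the ApcMyc arrays were lowest. ApcMyc minus WT was -1.34 ± 0.139, a 2.54-fold lower level, while Apc minus WT was -0.08 ± 0.139. Tomm70a, an import receptor of the outer membrane, read 4.09, 4.34 and 4.11 in ApcMyc, 4.65, 4.54 and 4.77 in Apc, 4.23, 4.10 and 4.44 in Myc and 4.20, 4.72 and 4.99 in WT. It was close to the bottom of the scale everywhere, and its ApcMyc and WT arrays overlapped although the authors' deposited table lists it as lower in ApcMyc. Import is thus described by 1 dim probe set here.

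**Figure D2:**
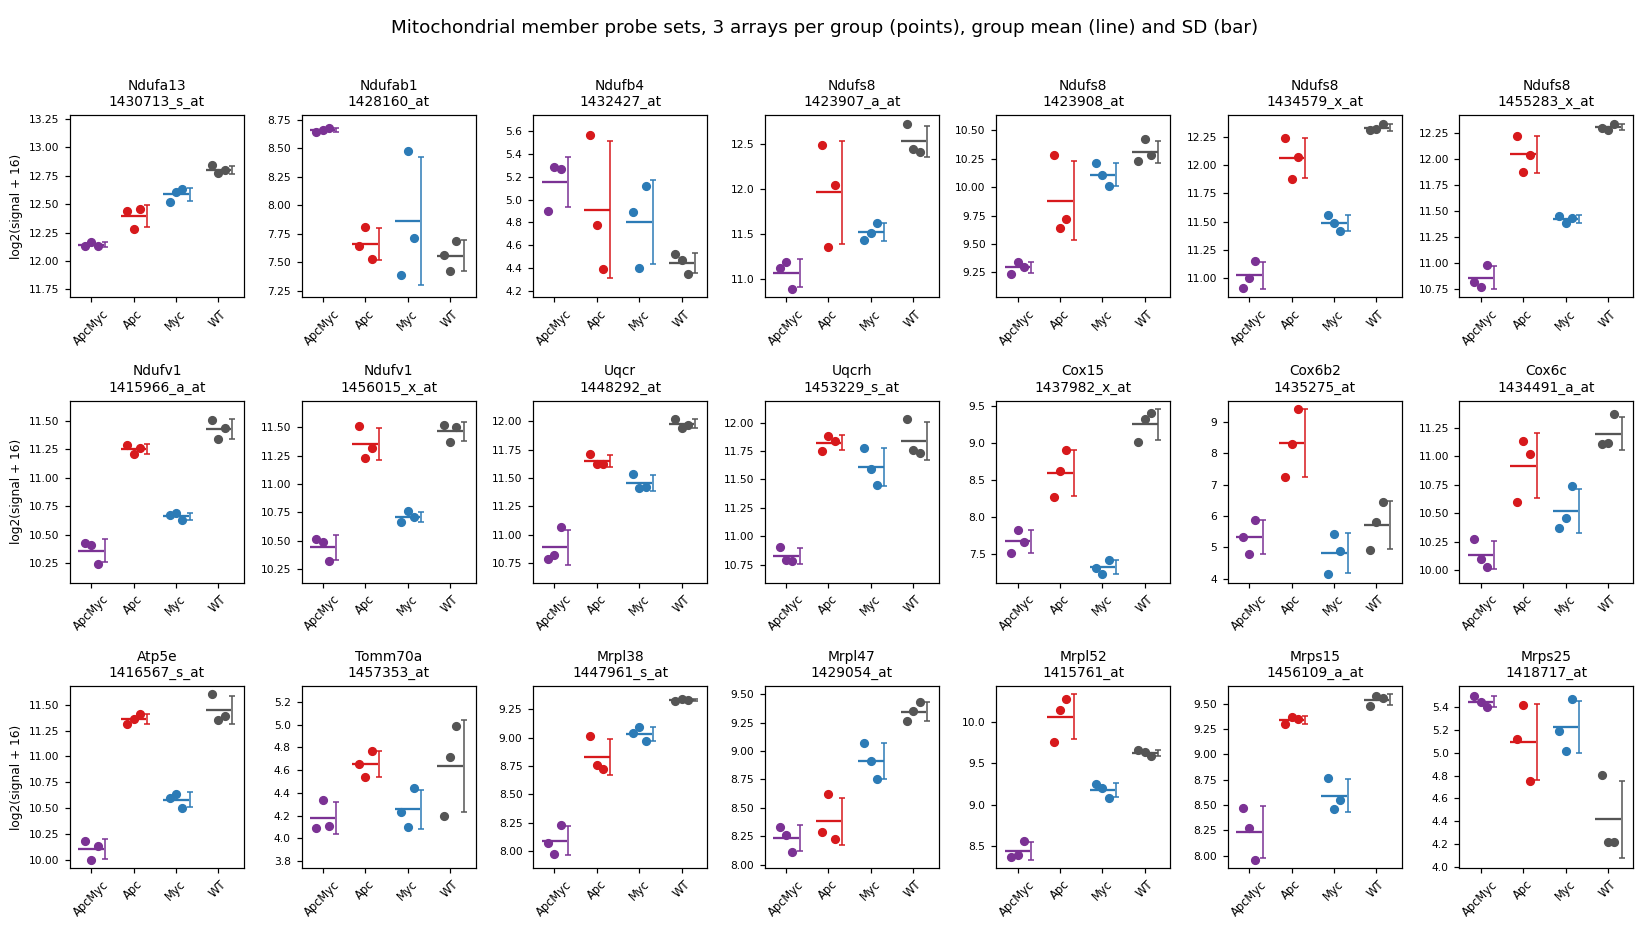
Every member probe set on the log2(signal + 16) scale, with 1 point per array, the group mean as a line and the SD as a bar; each panel has its own vertical range and groups run ApcMyc, Apc, Myc, WT. The ApcMyc points are the lowest in most panels, the Apc points of Cox6b2 and Mrpl52 lie above WT, and Ndufab1, Ndufb4 and Mrps25 are higher in ApcMyc than in WT.

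The mitochondrial ribosome members were 3 proteins of the large subunit and 2 of the small one. Mrpl52 read 8.37, 8.40 and 8.57 in ApcMyc, 9.76, 10.15 and 10.28 in Apc, 9.25, 9.21 and 9.08 in Myc and 9.66, 9.64 and 9.59 in WT livers. Apc arrays were highest, and the other groups ran down through WT and Myc to ApcMyc without overlap. It was listed for ApcMyc against Apc, where the difference was -1.62 ± 0.161 and its SAM statistic in the authors' deposited table, 3.121 in size, was close to the smallest on that list, 3.065. Mrpl38 read 8.07, 7.98 and 8.23 in ApcMyc, 9.01, 8.76 and 8.72 in Apc, 9.04, 9.09 and 8.97 in Myc and 9.32, 9.34 and 9.33 in WT. Its Apc and Myc arrays overlapped between the WT arrays above and the ApcMyc arrays below.

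Mrpl47 read 8.33, 8.26 and 8.11 in ApcMyc, 8.29, 8.62 and 8.23 in Apc, 9.07, 8.91 and 8.75 in Myc and 9.26, 9.35 and 9.43 in WT livers. Here ApcMyc and Apc overlapped, and Apc minus WT, -0.96 ± 0.159, was nearly as large as ApcMyc minus WT, -1.11 ± 0.159. Mrps15, of the small subunit, read 8.47, 8.27 and 7.96 in ApcMyc, 9.30, 9.37 and 9.35 in Apc, 8.77, 8.46 and 8.55 in Myc and 9.48, 9.58 and 9.56 in WT. In Mrps15 it was ApcMyc and Myc that overlapped, at the bottom, while the Apc arrays lay just under WT. Mrps25, also of the small subunit, was dim and ran the other way, with 5.50, 5.45 and 5.40 in ApcMyc, 5.12, 5.42 and 4.75 in Apc, 5.19, 5.02 and 5.47 in Myc and 4.81, 4.22 and 4.22 in WT. Its ApcMyc and Myc arrays were above all WT arrays, and ApcMyc minus WT was 1.03 ± 0.214.

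In Apc against WT no member was on the authors' deposited table. The median difference over the 21 probe sets was -0.20, with 15 lower and 6 higher, where the median over all tested probe sets was -0.02. All Apc arrays were below all WT arrays in 9 probe sets and above them in 2, those of Cox6b2 and Mrpl52, with a background of 16.2% below and 15.3% above. On the deposited scores the median was -0.39, and with the brightest probe set of each gene -0.11. In ApcMyc against Apc the median difference was -0.89, with 18 lower and 3 higher. All ApcMyc arrays were below all Apc arrays in 17 probe sets and above them in 1, that of Ndufab1, with a background of 17.6% below and 18.8% above. Both comparisons entered the choice of the members and share arrays with ApcMyc against WT, so they are given side by side and not read as support for one another.

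The Myc livers were not used to choose the members, so the comparisons that contain them were tested, with limma across all 32115 probe sets and a Benjamini-Hochberg adjusted p below 0.05. In Myc against WT 10 member probe sets fell and 1 rose, where 5.05% of all probe sets fell and 4.05% rose. The WT arrays also entered the choice, which tilts this comparison toward the direction of ApcMyc against WT, so the share is given as a count and no more. The median difference was -0.52 (-0.91 on the deposited scores), with 0.01 over all tested probe sets. All Myc arrays lay below all WT arrays in 15 members and above them in 1, with a background of 16.1% and 17.2%. Respiratory members, 15 of the 21 probe sets, had 9 falls (6 of 11 genes), at a median of -0.75 over the 15. Of these falls 5 were on 2 genes of complex I, Ndufs8 and Ndufv1. Most calls were respiratory, as were most members. Of the ribosome's 5 probe sets, 1 fell and 1 rose, at a median of -0.43, which was -0.20 with median scaling of the arrays.

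Cox15 had the largest fall in Myc livers, -1.92 ± 0.185 or 3.80-fold (limma adjusted p = 0.000274), in its only member probe set, an _x_at one. Mrps15 fell by 0.95 (adjusted p = 0.00448), Ndufs8 by 0.89 in 1455283_x_at (adjusted p = 0.00366) and Atp5e by 0.87 (adjusted p = 0.00338). Ndufv1 fell by 0.77 and 0.75 in its 2 probe sets (adjusted p = 0.0054 and 0.00772). These calls, with Ndufs8 1434579_x_at, were kept in every alternative processing tried and without any single array. Cox6c (-0.68, adjusted p = 0.0362), Uqcr (-0.52, adjusted p = 0.0373), Ndufs8 1423907_a_at (-1.01, adjusted p = 0.0221) and the rise of Mrps25 (0.81, adjusted p = 0.0359) were each lost when 1 of several arrays was left out. The count of calls was 7 without Myc replicate 1, 2 or 3 or WT replicate 2 or 3. Ndufs8 1423908_at did not pass (-0.20, adjusted p = 0.517), nor did Ndufa13, Uqcrh, Mrpl38, Mrpl47 and Mrpl52, which differed by -0.22 to -0.45. Because title style runs with Myc deletion, the 2 cannot be told apart in any of these differences.

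ApcMyc against Myc is the response to Apc loss where Myc is deleted, within 1 title style. There 9 member probe sets fell and 1 rose, where 6.76% of all tested probe sets fell and 6.64% rose, and the ApcMyc arrays had entered the choice. The median difference was -0.44 (-0.78 with median scaling), with -0.02 over all tested probe sets. All ApcMyc arrays lay below all Myc arrays in 14 members and above them in 2, with a background of 18.8% and 17.0%. Mrpl38 fell by 0.94 (limma adjusted p = 0.00118), Uqcrh by 0.78 (adjusted p = 0.00473), Mrpl52 by 0.73 (adjusted p = 0.00992) and Ndufs8 1423908_at by 0.82 (adjusted p = 0.0091), and these 4 passed in every alternative. Mrpl47 fell by 0.68 (adjusted p = 0.0148), a call lost without Myc replicate 1 (adjusted p = 0.0651). Uqcr (-0.56, adjusted p = 0.0194) and Ndufs8 1455283_x_at (-0.56, adjusted p = 0.0216) were each lost in 6 of 20 alternatives. Atp5e (-0.48, adjusted p = 0.0391) was lost in 12, Ndufa13 (-0.44, adjusted p = 0.0437) in 14 and the rise of Ndufab1 (0.80, adjusted p = 0.0377) in 10. For each of these 5 calls, leaving out a single array was among the alternatives that lost it. The count was 5 on the deposited scores and without ApcMyc replicate 1 or 2 or Myc replicate 3, 6 without Myc replicate 2 and 4 without Myc replicate 1. Neither Ndufv1 probe set passed, at -0.31 and -0.27, nor did Cox15, whose difference was 0.34 ± 0.185 with all ApcMyc arrays above all Myc arrays.

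**Figure D3:**
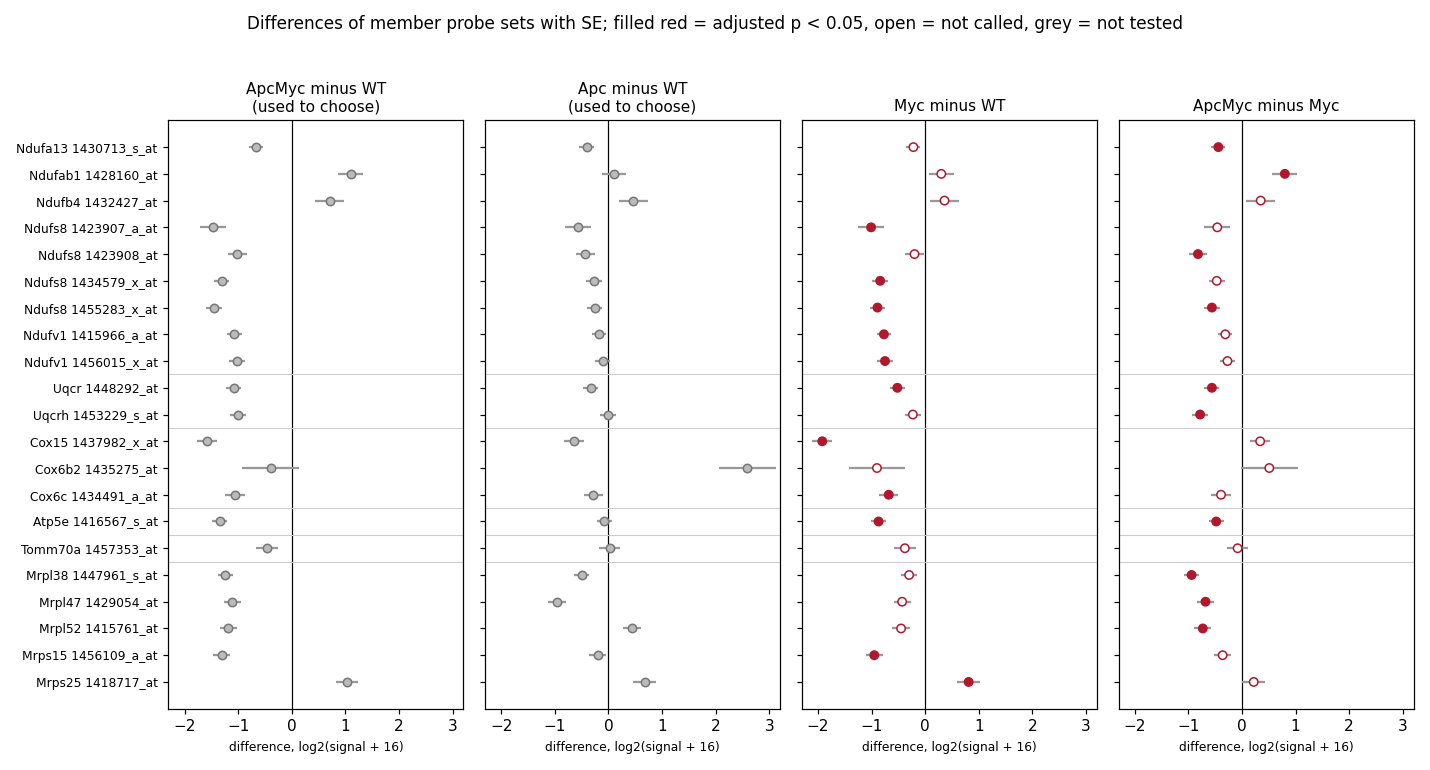
Differences of the 21 member probe sets on the log2(signal + 16) scale with their SE as bars, in 4 comparisons; grey points belong to comparisons that chose the members and were not tested, filled red points passed a limma adjusted p below 0.05 and open points did not. In Myc minus WT the filled points, like the members, are mainly respiratory and reach -1.92 at Cox15. In ApcMyc minus Myc they include Mrpl38, Mrpl47 and Mrpl52.

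Whether Apc loss acted differently with and without Myc was tested by the interaction, ApcMyc minus Myc less Apc minus WT, which cancels an additive difference between title styles. It is orthogonal to ApcMyc minus WT, on which 20 members were listed, but not to the choice of Mrpl52 and Cox6b2, which were listed for ApcMyc against Apc. Of the 21 probe sets 1 passed on the lower side and 0 on the higher, where 1.11% of all tested probe sets passed lower and 1.2% higher. The one was Mrpl52, with -0.73 after Apc loss in the absence of Myc and 0.44 in its presence, an interaction of -1.17 ± 0.228 (limma adjusted p = 0.0254). It did not pass in 10 of 19 alternatives, which left out single arrays or changed the pseudocount or the value scale, with adjusted p between 0.00589 and 0.0652 over all of them. The median interaction of the members was -0.16, with 0.0 over all tested probe sets. It was -0.40 with median scaling and -0.05 on the deposited scores, where the median of the respiratory members turned to 0.05. Uqcrh at -0.77 ± 0.212 (adjusted p = 0.0779), Cox15 at 1.0 ± 0.262 (adjusted p = 0.0684) and Cox6b2 at -2.08 ± 0.750 (adjusted p = 0.159) did not pass.

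The place of the Myc livers between WT and ApcMyc was tested as Myc minus the mean of WT and ApcMyc, which is likewise orthogonal to ApcMyc minus WT. Here 1 of 21 probe sets passed lower and 0 higher, where 3.72% of all tested probe sets passed lower and 2.62% higher. Cox15 lay 1.13 ± 0.160 below that mean (difference -1.13, limma adjusted p = 0.00259), and it passed in every alternative. For the other members the difference ran from -0.71 to 0.32, with a median of -0.15 over all 21. The median was -0.02 with median scaling and -0.07 without Myc replicate 1. Respiratory members had a median of -0.19 (-0.03 with median scaling) and those of the ribosome 0.14 (0.35 with median scaling). No test set these classes against each other, so a difference between them is not claimed.

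Other mitochondrial genes that the deposited lists name did not all run the same way, and being on a list they were chosen by the same 3 comparisons. That tilts the comparisons with Myc livers, so calls here and in the next paragraph are given as counts and no more. Of all tested probe sets 6.76% fell and 6.64% rose in ApcMyc against Myc. In Myc against WT 5.05% fell and 4.05% rose. Of 20 enzymes of the tricarboxylic acid cycle 4 were named. In ApcMyc against Myc 3 of them rose: Cs, citrate synthase (1.22, limma adjusted p = 0.000468), Idh3a (1.56, adjusted p = 0.00022) and Idh2 (1.05, adjusted p = 0.000987), both isocitrate dehydrogenases. ApcMyc minus WT for these was 1.74, 1.55 and 1.19, and that of the cytosolic malate dehydrogenase Mdh1 was -0.81, where 13 of the 15 respiratory probe sets were lower and 2 higher. Of 21 regulators of mitochondrial biogenesis 3 were named and all 3 fell in ApcMyc against Myc: Gabpa, an ETS-family factor (-1.12, adjusted p = 0.000419), Ppargc1b, a coactivator (-1.80, adjusted p = 0.000803), and Polrmt, the mitochondrial RNA polymerase (-0.60, adjusted p = 0.0328). In Myc against WT only Polrmt of these passed (-1.17, adjusted p = 0.00178). Apc minus WT, not tested, was -0.69 for Gabpa, -2.38 for Ppargc1b and -0.52 for Polrmt. It was 0.87 for Cs, 1.23 for Idh3a, 0.62 for Idh2 and -0.77 for Mdh1.

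Among 22 mitochondrial chaperones and proteases 3 were named. In Myc against WT the proteases Clpp (-1.01, limma adjusted p = 0.00241) and Yme1l1 (-1.13, adjusted p = 0.00559) fell, and the chaperone cofactor Grpel2 rose in ApcMyc against Myc (0.69, adjusted p = 0.0461). Of 29 translation factors and aminoacyl-tRNA synthetases 2 were named, Hars2 and Yars2, with ApcMyc minus WT of -1.46 and -1.30, and Yars2 fell in Myc against WT (-1.20, adjusted p = 0.0107). Of 24 electron carriers and transporters 6 were named: Coq8a, of coenzyme Q synthesis, fell in Myc against WT (-1.31, adjusted p = 0.0031) and in ApcMyc against Myc (-1.34, adjusted p = 0.00126), while Coq3 rose in Myc against WT (0.74, adjusted p = 0.0171). Cyc1, cytochrome c1 of complex III, had an ApcMyc minus WT difference of -0.76, and Slc25a4, Atpif1 and Pdss1 had 0.98, 0.81 and 0.49. None of 23 assembly factors outside the symbol rule was named.

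The cytosolic ribosome was set beside the mitochondrial one. Its 8 named proteins had a median difference of -1.01 in ApcMyc against WT, close to the -1.18 of the mitochondrial ribosome. Both sets hold only genes on the deposited lists, so the WT and ApcMyc arrays entered their choice. That tilts the comparisons with Myc livers, so the counts below are given as counts and no more. In Myc against WT 6 of the 8 fell, against 5.05% of all tested probe sets, at a median of -0.95, with Rps24 at -1.88 (limma adjusted p = 0.000505) and Rps21 at -1.45 (adjusted p = 0.000473). In ApcMyc against Myc 1 of the 8 fell, Rpl13a (-0.51, adjusted p = 0.0266), at a median of -0.21, and 3 of the 5 mitochondrial ribosome members fell, at a median of -0.68, against 6.76% of all tested probe sets. The difference between the 2 ribosomes was not tested. In Apc against WT all 8 cytosolic proteins were higher, at a median of 0.21, and 3 of the 5 mitochondrial ones lower.

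Markers of several liver cell types also differed between groups, not all in the order of the members. A marker is named only if it is on a deposited list of changed probe sets, so unchanged markers are not seen here. In Apc minus WT the hepatocyte marker Serpina1a differed by -0.94 and Apoa1 by 0.0. Apoa1 read 13.92 with an SD of 0.0 in both groups, as quantile normalization gives a probe set of the same rank on every array. Its 0.0 is therefore no measure of an unchanged level, and the sums below include it. For hepatocytes 2 of 10 markers were named, Apoa1 and Serpina1a, with a summed signal of 13088 to 16543 in ApcMyc, 20663 to 22411 in Apc, 22077 to 22521 in Myc and 26188 to 27085 in WT livers. For macrophages 3 of 7 were named, Cd68, Lyz2 and Marco, with 1811 to 2486 in ApcMyc, 564 to 886 in Apc, 1625 to 2161 in Myc and 490 to 1362 in WT. For endothelial cells 4 of 5 were named, with 985 to 1124 in ApcMyc, 314 to 507 in Apc, 508 to 524 in Myc and 253 to 621 in WT. For red cells 2 of 5 were named, Alas2 and Car1, with 229 to 408 in ApcMyc, 144 to 252 in Apc, 550 to 756 in Myc and 1024 to 1187 in WT. No named marker of any type was at 0, the lowest signal of one being 5.9 in an endothelial marker, and no marker of cholangiocytes, stellate cells, T and B cells or striated muscle was named. RNA quality also differed by group: the Gapdh 3′ to 5′ signal ratio was 1.07 to 1.18 in ApcMyc, 0.72 to 0.89 in Apc, 0.97 to 1.18 in Myc and 0.92 to 0.97 in WT, and that of actin was 1.62 to 1.72 in ApcMyc, 1.57 to 2.16 in Apc, 1.62 to 2.09 in Myc and 2.08 to 2.6 in WT. The part of these in the members' differences was not tested. In 5 bands of mean signal, the median ApcMyc minus WT difference over all tested probe sets was between -0.02 and 0.01 at every level of brightness. Quantile normalization gives every array the same distribution and so pulls these medians toward 0. They are therefore no check on the differences in signal level or RNA quality.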

How the data were processed

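Total liver RNA was measured on 12 arrays, 1 per sample, in 4 groups of 3 taken from the titles. Each deposited value is a score, which the authors made from the log of the signal by centring and scaling every array, as the values themselves show. The SAM statistic of the deposited lists, also a score, comes from a 2-class unpaired test with 100 permutations, per the file headers; the stricter lists were not used. The labels state neither array type nor scanner software nor filters. Low scores step as logs of a 0.1 grid, which gave back the linear signals: below 1000, 100.0% of them were within 0.01 of a grid point, and 79 to 532 probe sets per array sat at the floor. The number of arrays limits the precision.

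Signals of 32176 probe sets were quantile normalized, 16 was added, log2 was taken, and 32115 probe sets (without 61 controls) were fitted with 4 group means in limma 3.58.1 (R 4.3.3), p-values being two-sided and Benjamini-Hochberg adjusted over all probe sets. Each member with several probe sets was tested per probe set. The fit was tested on simulated data. Tables and figures used Python 3.11.15, NumPy 2.4.6, pandas 2.3.3 and matplotlib 3.10.9.

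Members and gene lists were chosen with earlier results of these data known, and the tests and alternatives were then set. Every member is named; from each further gene list the named genes were up to 4 with the largest ApcMyc minus WT difference, and others named were added after their values were seen. A gene of the lists is read by its brightest probe set. The symbol pattern of the cytosolic ribosome was narrowed afterwards to leave out the kinase Rps6kb1. Of 2975 listed probe sets, 2517 had 1 symbol, 204 several, 230 none and 24 were controls. Of the members' symbols 16 were in the RefSeq table as given and 1 was updated, Uqcr to Uqcr11. WT and Apc titles share the numbers 1 to 3, but arrays with the same number did not deviate together, with residual correlations of 0.0627, 0.0056 and -0.0122, so no pairing was used. Alternatives were median scaling, pseudocounts of 1 and 64, the scores as deposited, an intensity trend, a filter on dim probe sets, fitting only the groups compared, a replicate block, the brightest probe set of each gene, and leaving out each array.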

Additional observations from a re-analysis of the deposited data

Results flagged for a closer look

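Mrpl52 (1415761_at) was flagged because its estimated response to Apc loss differed by the presence of Myc. The interaction was -1.17 on the log2 scale (limma adjusted p = 0.0254), and all 3 Apc arrays were above all WT arrays while all 3 ApcMyc arrays were below all Myc arrays. It was listed for ApcMyc against Apc, so this test is not independent of its choice. The call was lost in 10 of 19 alternatives. Cox15 (1437982_x_at) moved in opposite directions in all arrays, with the Apc arrays below WT and the ApcMyc arrays above Myc. Its interaction was 1.0, which did not pass the test (limma adjusted p = 0.0684).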

How the results depend on the processing

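No called member changed sign under any alternative. Medians near 0 did: the respiratory interaction, -0.16, was 0.05 on the deposited scores, and for Tomm70a alone Apc minus WT (0.02) ran from -0.20 to 0.35, ApcMyc minus Myc (-0.08) from -0.98 to 0.01 and the interaction (-0.10) from -1.33 to 0.12. The 11 members called in Myc minus WT became 7 to 11 without single arrays, and the 10 called in ApcMyc minus Myc became 5 on the deposited scores and 4 to 11 without single arrays. The 1 called in the interaction became 3 with an intensity trend, with a pseudocount of 64 or without dim probe sets, 2 with median scaling, 2 with the replicate block on WT and Apc, 0 with a pseudocount of 1 or on the deposited scores, and 0 to 2 without single arrays. The 1 called in Myc minus the midpoint of WT and ApcMyc became 2 with median scaling. The replicate block changed no other of these counts by over 1.5 times. The median difference over the members, -0.20 in Apc minus WT, was -0.28 with median scaling, -0.39 on the deposited scores, -0.27 without dim probe sets and -0.11 with the brightest probe set of each gene. The -0.89 of ApcMyc minus Apc was -0.98 with median scaling, -0.79 with a pseudocount of 64, -0.95 on the deposited scores, -0.78 with the brightest probe sets and -0.92 to -0.80 without single arrays. The -1.07 of ApcMyc minus WT was -1.27 with median scaling and -1.29 on the deposited scores. Scores were put on the log2 scale by the mean SD of the arrays. Over all tested probe sets the calls ran from 1248 to 3995 in Myc minus WT (2925 as reported), from 2535 to 5270 in ApcMyc minus Myc (4302), from 151 to 1586 in the interaction (744) and from 559 to 3474 in Myc minus the midpoint (2035). The cause of these changes was not tested. Mrps25, Ndufb4 and Tomm70a, and Cox6b2 outside the Apc livers, lie near the bottom of the scale, where differences are understated.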

Other observations

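The symbol rule leaves out probe sets that carry several symbols, and 6 of these have a mitochondrial symbol among them: Mrpl30, Atp5o, Cox7c, Atp5g1, Atp5l and Ndufb5. Each can read more than 1 gene, so the values belong to the probe set and not to a gene. They were on the same deposited lists, and ApcMyc minus WT ran from -2.42 to -0.87. In Apc minus WT they ran from -1.22 to -0.14, and in Myc minus WT from -1.68 to 0.08. The Myc arrays split them: the probe set of Cox7c averaged 11.14 in ApcMyc, 11.81 in Apc, 12.24 in Myc and 12.16 in WT livers, so Myc livers were level with WT. That of Atp5o averaged 8.21 in ApcMyc, 10 in Apc, 8.62 in Myc and 10.31 in WT, so Myc livers were close to ApcMyc. Set against the mean of WT and ApcMyc, the Myc arrays lay 0.59 above it for Cox7c (limma adjusted p = 0.0117) and at -0.64 for Atp5o (adjusted p = 0.0199).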
